A study of Mus musculus with 11 samples.

Results

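The transcription factors of the dorsal cortical lineage were followed by name in the RNA of mouse neuroprogenitor cells (NPCs): *Pax6*, *Emx1*, *Emx2* and *Lhx2*, which pattern the progenitors of the dorsal telencephalon, the proneural factors *Neurog1* and *Neurog2*, *Eomes* (TBR2), the factor of intermediate progenitors, *Neurod1*, which acts in newly formed neurons, and *Tbr1*, the factor of early-born deep-layer neurons. These 9 genes were chosen by their names and known roles, and all 9 were present among the 53801 gene identifiers of the count files. In the developing cortex the radial glia of the ventricular zone express *Pax6*, *Emx1*, *Emx2* and *Lhx2*. *Neurog2* and *Neurog1* drive these cells out of the cycle towards a glutamatergic fate, and the sequence *Pax6*, *Neurog2*, *Eomes*, *Neurod1*, *Tbr1* describes the path from radial glia through intermediate progenitors to projection neurons.

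Total RNA was sequenced from NPC cultures of E13.5 embryos with a mixed C57BL/6 and 129SV background, in 11 libraries of 8 embryos. Untreated cells of genotype *Smg6* Flox/Flox; RosaCreER tg/+ formed the group Ctr (n = 3, embryos named SMH_128, SMH_132 and SMH_133). Cells of genotype *Smg6* Flox/Flox; RosaCreER +/+ that received 1 µM 4-OHT (4-hydroxytamoxifen, which activates CreER) for 3 days formed Ctr + 4-OHT (n = 4, embryos SMH_125, SMH_126, SMH_129 and SMH_131). Cells of genotype *Smg6* Flox/Flox; RosaCreER tg/+ that received the same treatment formed *Smg6*-iKO (n = 4, embryos SMH_127, SMH_128, SMH_132 and SMH_133). RNA of all 11 libraries was taken at day 6, which the paper counts from the 4-OHT treatment of the neurosphere cultures. SMG6 is an endonuclease of nonsense-mediated mRNA decay, and its floxed gene was carried by all 3 groups. CreER was expressed from the Rosa26 locus and hence in every cell type of the culture, the cells came from the brain of the embryo and not from the cortex alone, and EGF and bFGF were in the medium. The Ctr + 4-OHT and Ctr groups differed in the Cre genotype, in the treatment and in the embryos, and these cannot be told apart in their comparison. Likewise *Smg6*-iKO differed from Ctr in the 4-OHT treatment as well as in the induced deletion, and from Ctr + 4-OHT in the Cre genotype and in the embryos, so that neither comparison separates the deletion from these. Embryos SMH_128, SMH_132 and SMH_133 gave both a Ctr and a *Smg6*-iKO library.

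The libraries held 26418249 to 33756875 reads assigned to genes. The count of *Smg6* over the whole gene (66.0 ± 4.57 CPM in *Smg6*-iKO, 69.3 ± 3.22 CPM in Ctr + 4-OHT and 74.4 ± 4.96 CPM in Ctr; CPM, counts scaled per 1000000 after TMM normalisation; SD, n = 4, 4 and 3) overlapped between groups. It was lower in the *Smg6*-iKO library of each of the 3 embryos with a pair, and its log2 fold change against Ctr was -0.17 (adjusted p = 0.148), and embryo blocks gave -0.15 (adjusted p = 0.0430). The count over the whole gene does not show the floxed part alone. *Esr1*, a form of which is part of CreER, lay between 3.89 and 4.71 CPM in the 7 libraries labelled tg/+ and at no more than 0.283 CPM in the 4 labelled +/+, as the labelled genotypes imply. Of 15 midbrain and hindbrain markers, only 2 or 3 had enough counts to be tested, and *Hoxa2* had a count of 0 in all 11 libraries. All 18 ganglionic eminence markers were detected as well, at a summed level of 387 to 516 TPM (transcripts per 1000000, the level per gene length).

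Read per kilobase of gene length and scaled to 1000000 per library (TPM), *Lhx2* was the highest of the 9 factors, with a mean of 69.5 TPM over the 11 libraries and a range of 60.2 to 90.1. *Neurog2* followed with 24.8 TPM, then *Emx1* with 22.0, *Emx2* with 16.9, *Pax6* with 15.5, *Tbr1* with 9.85, *Eomes* with 9.10, *Neurod1* with 8.98 and *Neurog1* with 0.574 TPM. Only 2 of the 8 neighbouring pairs in this order did not overlap over the libraries, *Lhx2* above *Neurog2* and *Neurod1* above *Neurog1*. *Eomes* was above *Neurod1* in 3 of 11 libraries, so the order of these factors is not settled by the data. *Neurog1* was near the limit of detection, with 3 to 18 reads per library, and was kept by the count filter in 1 of the 3 comparisons only.

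The sequences before the start sites of 4 factors are shown because *Pax6* and *Lhx2* differed little between embryos of a group while *Neurog2* and *Eomes* differed widely and together. Each line holds the 250 bases before the RefSeq start of the gene on GRCm38.p6, 5′ to 3′ on the strand of the gene, with any match to TATATAA or TAATTA in capitals. All 9 factors were matched by their symbol to 11 RefSeq windows, since *Pax6* and *Lhx2* have 2 starts each, of which the first along the chromosome is shown.
Pax6 promoter, chr2:105668646-105668895, forward strand: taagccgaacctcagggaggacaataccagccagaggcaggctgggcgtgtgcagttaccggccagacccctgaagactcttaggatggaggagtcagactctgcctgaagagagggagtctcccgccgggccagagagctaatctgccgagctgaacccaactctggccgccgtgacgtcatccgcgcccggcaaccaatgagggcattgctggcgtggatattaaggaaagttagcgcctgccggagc
Lhx2 promoter, chr2:38339031-38339280, forward strand: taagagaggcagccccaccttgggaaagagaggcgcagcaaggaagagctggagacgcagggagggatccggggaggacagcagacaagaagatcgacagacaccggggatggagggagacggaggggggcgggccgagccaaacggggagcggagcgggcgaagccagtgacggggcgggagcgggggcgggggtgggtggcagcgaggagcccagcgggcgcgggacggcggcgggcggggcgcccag
Neurog2 promoter, chr3:127632886-127633135, forward strand: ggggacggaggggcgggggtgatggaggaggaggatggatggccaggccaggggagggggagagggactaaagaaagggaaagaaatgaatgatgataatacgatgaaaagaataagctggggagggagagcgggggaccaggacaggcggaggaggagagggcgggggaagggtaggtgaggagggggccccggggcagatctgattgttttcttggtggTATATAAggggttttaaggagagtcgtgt
Eomes promoter, chr9:118477939-118478188, forward strand: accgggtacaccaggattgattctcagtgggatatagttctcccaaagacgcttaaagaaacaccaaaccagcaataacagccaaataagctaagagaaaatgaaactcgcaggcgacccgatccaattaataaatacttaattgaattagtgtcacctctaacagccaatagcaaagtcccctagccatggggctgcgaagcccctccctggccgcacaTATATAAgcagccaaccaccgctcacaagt
TATATAA was found 30 bases before the start of *Eomes*, 29 bases before that of *Neurog2* and 31 bases before that of *Neurod1*, whereas 3.04% of all 32851 promoter windows of this length held it on either strand. TAATTA, the core to which homeodomain factors such as EMX2 and LHX2 can bind, was found before *Tbr1* and *Neurog1* and in 4.84% of all windows. The E-box CANNTG, recognised by NEUROG2 and NEUROD1 among other bHLH factors, occurred before *Emx1*, *Neurod1*, *Tbr1* and the start of *Pax6* that is not shown, and in 66.2% of all windows. CAGATG, one form of this E-box, was in none of the 11 windows of the 9 factors and in 14.4% of all windows. TATATAA and TAATTA were chosen after these windows had been read, and a match is a run of letters and not a binding site.

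**Figure D1:**
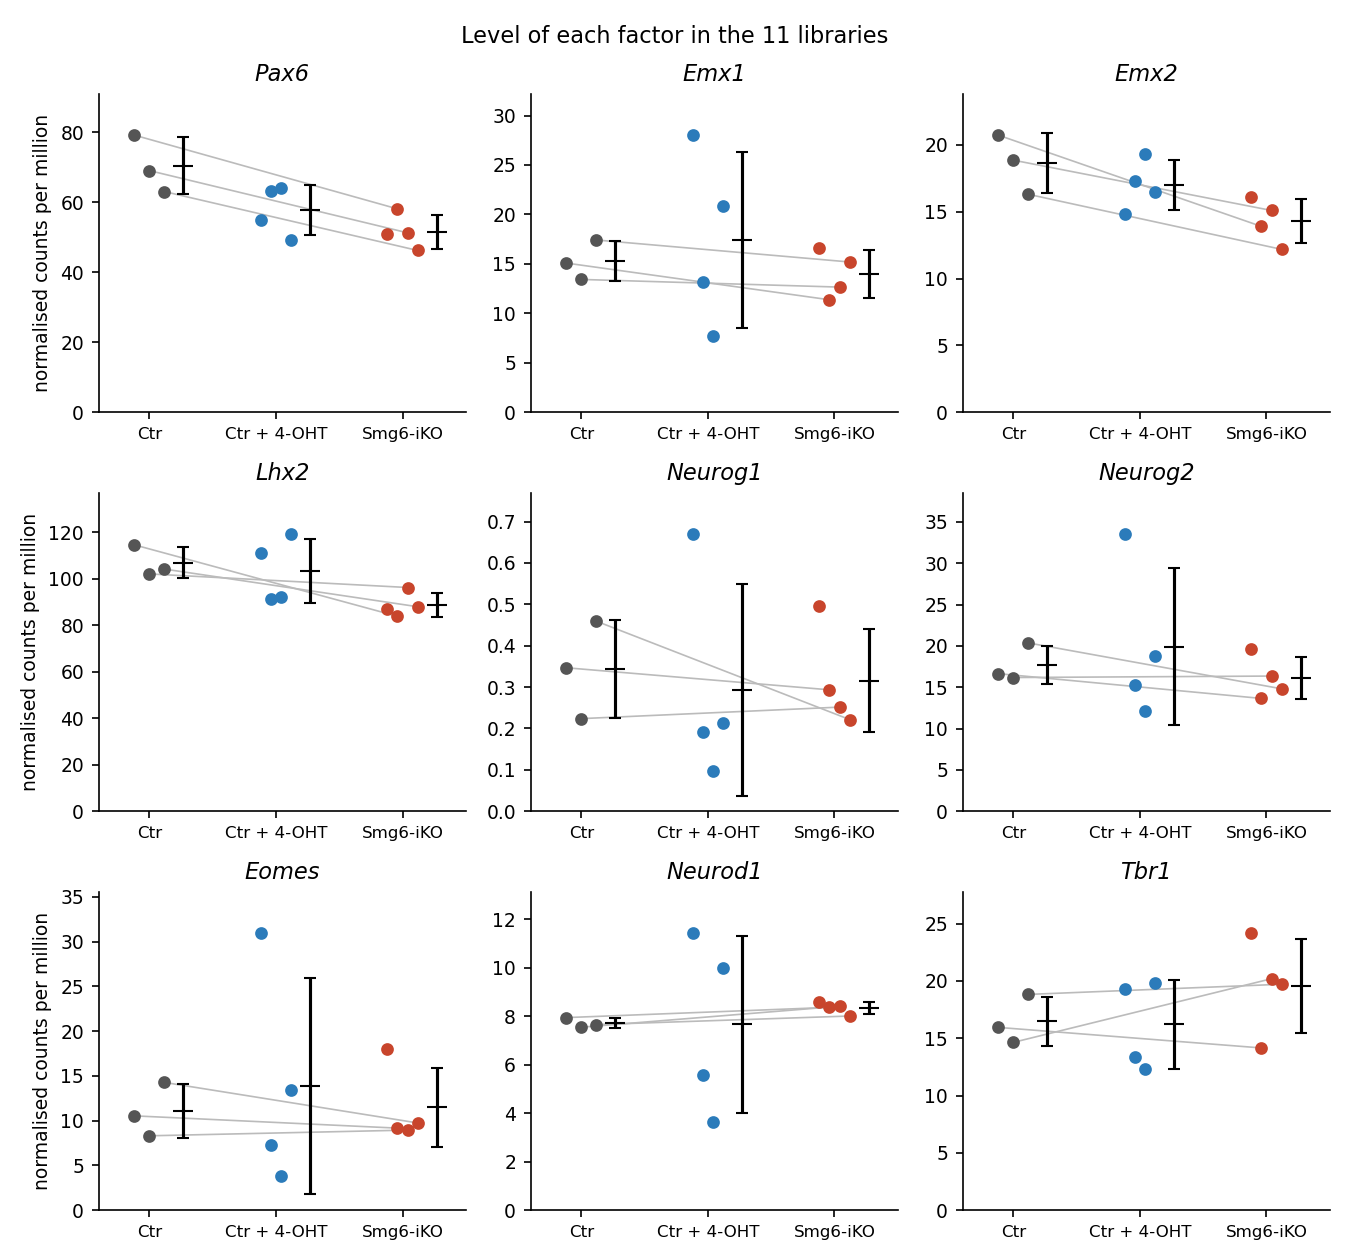
Level of each factor in normalised CPM (y axes from 0) in the 3 Ctr, 4 Ctr + 4-OHT and 4 *Smg6*-iKO libraries. Points are libraries, grey lines join the libraries of embryos SMH_128, SMH_132 and SMH_133, and black bars give the mean ± SD. *Pax6*, *Emx2* and *Lhx2* of *Smg6*-iKO lie below Ctr without overlap, and the Ctr + 4-OHT points of *Eomes* span 3.84 to 31.0 CPM.

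*Pax6* (ENSMUSG00000027168, chromosome 2 of GRCm38 from 105668900 to 105697364, forward strand), the paired homeobox factor of radial glia, fell in *Smg6*-iKO relative to Ctr. It was at 79.2, 69.1 and 63.1 CPM in Ctr, at 54.8, 63.3, 64.1 and 49.2 CPM in Ctr + 4-OHT, and at 50.8, 58.1, 51.3 and 46.2 CPM in *Smg6*-iKO. All *Smg6*-iKO libraries were below all Ctr libraries, while Ctr + 4-OHT lay between and overlapped both. Its log2 fold change against Ctr was -0.45 (SE 0.092, adjusted p = 0.0166), a change of -26.8%. In a two-sided exact permutation test p was 0.0571, the smallest value that 3 against 4 libraries allow. Relative to Ctr + 4-OHT it was -0.15 (95% interval -0.37 to 0.063, adjusted p = 0.467), and Ctr + 4-OHT relative to Ctr was -0.28 (adjusted p = 0.527). Without Ctr embryo SMH_128, Ctr embryo SMH_132 or *Smg6*-iKO embryo SMH_133 the adjusted p against Ctr was 0.0672, 0.0517 and 0.0501, with log2 fold changes of -0.35, -0.48 and -0.40. In bulk RNA, fewer cells that express a gene and less RNA per cell cannot be told apart, which holds for every factor here.

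*Emx2* (ENSMUSG00000043969, chromosome 19 from 59458372 to 59465357), a homeobox factor that sets the area map of the cortex, had a similar profile. Its levels were 20.7, 18.9 and 16.3 CPM in Ctr, 14.8, 17.3, 19.4 and 16.5 CPM in Ctr + 4-OHT, and 16.1, 13.9, 15.1 and 12.2 CPM in *Smg6*-iKO. The 4 *Smg6*-iKO values were below the 3 Ctr values by a small margin and overlapped Ctr + 4-OHT. The log2 fold change of -0.38 against Ctr missed the threshold (SE 0.111, adjusted p = 0.0553), whereas a model with embryo blocks gave -0.44 (SE 0.079, adjusted p = 0.000775). Against Ctr + 4-OHT it was -0.24 (95% interval -0.48 to 0.0062, adjusted p = 0.309).

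*Lhx2* (ENSMUSG00000000247, chromosome 2 from 38339281 to 38369733), the LIM homeobox selector of cortical identity, also fell relative to Ctr, by less. It was at 115, 102 and 104 CPM in Ctr, at 111, 91.3, 92.1 and 119 CPM in Ctr + 4-OHT, and at 87.1, 83.9, 96.3 and 88.0 CPM in *Smg6*-iKO. The *Smg6*-iKO libraries were below Ctr without overlap, with a log2 fold change of -0.27 (SE 0.064, adjusted p = 0.0291). The call was lost without Ctr embryo SMH_128, SMH_132 or SMH_133 (adjusted p = 0.118, 0.0546 and 0.0647) and without *Smg6*-iKO embryo SMH_127 or SMH_133 (adjusted p = 0.0689 and 0.0872), with log2 fold changes between -0.31 and -0.21 over all libraries left out in turn. Against Ctr + 4-OHT the log2 fold change was -0.21 (95% interval -0.41 to -0.0057, adjusted p = 0.285), the only one of the 8 factors tested there with an unadjusted p under 0.05, as had 2930 of all 17558 genes (16.7%).

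*Emx1* (ENSMUSG00000033726, chromosome 6 from 85187438 to 85204462), the homeobox factor that marks the pallium, was at 15.1, 13.4 and 17.4 CPM in Ctr and at 16.7, 11.4, 12.6 and 15.2 CPM in *Smg6*-iKO. In Ctr + 4-OHT it was at 28.0, 13.2, 7.66 and 20.8 CPM, so that both the highest and the lowest of the 11 libraries belonged to this group. Its log2 fold change was -0.13 against Ctr (95% interval -0.43 to 0.17, adjusted p = 0.595) and -0.30 against Ctr + 4-OHT (95% interval -1.01 to 0.41, adjusted p = 0.687).

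Of the proneural factors, *Neurog2* (ENSMUSG00000027967, chromosome 3 from 127633135 to 127635631) was at 16.6, 16.2 and 20.4 CPM in Ctr, at 33.5, 15.2, 12.1 and 18.8 CPM in Ctr + 4-OHT, and at 19.6, 13.6, 16.4 and 14.8 CPM in *Smg6*-iKO. The groups overlapped in all 3 comparisons. The log2 fold change was -0.13 against Ctr (95% interval -0.42 to 0.15, adjusted p = 0.540) and -0.29 against Ctr + 4-OHT (95% interval -0.89 to 0.31, adjusted p = 0.637). *Neurog1* (ENSMUSG00000048904, chromosome 13 from 56250478 to 56252163, reverse strand) had 10, 7 and 12 reads in Ctr, 18, 5, 3 and 6 reads in Ctr + 4-OHT, and 17, 8, 7 and 7 reads in *Smg6*-iKO. It was not called against Ctr (adjusted p = 0.929), where the 95% interval of its log2 fold change ran from -0.92 to 0.77 and left the direction open.

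*Eomes* (ENSMUSG00000032446, chromosome 9 from 118478212 to 118486132), the T-box factor of intermediate progenitors, was the most variable of the 9. It was at 10.5, 8.31 and 14.3 CPM in Ctr, at 31.0, 7.31, 3.84 and 13.4 CPM in Ctr + 4-OHT, and at 18.1, 9.17, 8.95 and 9.75 CPM in *Smg6*-iKO. Embryo SMH_125 of Ctr + 4-OHT was 8.05-fold above embryo SMH_129 of the same group, and embryo SMH_127 stood apart from the other 3 in *Smg6*-iKO. The log2 fold change against Ctr + 4-OHT was -0.25 with a 95% interval of -1.41 to 0.90 (adjusted p = 0.852), although the difference of the mean log2 CPM was 0.073, of the opposite sign. Against Ctr it was 0.067 (95% interval -0.50 to 0.63, adjusted p = 0.899) and turned to -0.24 without *Smg6*-iKO embryo SMH_127 (adjusted p = 0.431) and to -0.11 without Ctr embryo SMH_132 (adjusted p = 0.849).

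*Neurod1* (ENSMUSG00000034701, chromosome 2 from 79452521 to 79456751, reverse strand), the bHLH factor of young neurons, was close to constant within Ctr and within *Smg6*-iKO. It was at 7.94, 7.54 and 7.65 CPM in Ctr and at 8.60, 8.36, 8.41 and 8.01 CPM in *Smg6*-iKO, the higher group by a gap of 7.94 to 8.01 CPM, which closed with DESeq2 size factors (two-sided exact permutation p = 0.0571 with TMM and 0.114 with these). In Ctr + 4-OHT it was at 11.4, 5.59, 3.65 and 10.0 CPM and spanned both. The log2 fold change against Ctr was 0.11 (95% interval -0.081 to 0.31, adjusted p = 0.445), so the small separation did not pass the test across genes.

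*Tbr1* (ENSMUSG00000035033, chromosome 2 from 61802930 to 61814114), the T-box factor of deep-layer neurons, was at 15.9, 14.6 and 18.8 CPM in Ctr, at 19.3, 13.4, 12.3 and 19.9 CPM in Ctr + 4-OHT, and at 24.2, 14.2, 20.2 and 19.7 CPM in *Smg6*-iKO. Of the 8 factors tested in both comparisons of *Smg6*-iKO, *Tbr1* and *Neurod1* were those with a positive log2 fold change in each, and none of these 4 values passed the test. For *Tbr1* the log2 fold changes were 0.25 against Ctr (95% interval -0.089 to 0.60, adjusted p = 0.325) and 0.29 against Ctr + 4-OHT (95% interval -0.14 to 0.71, adjusted p = 0.488).

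**Figure D2:**
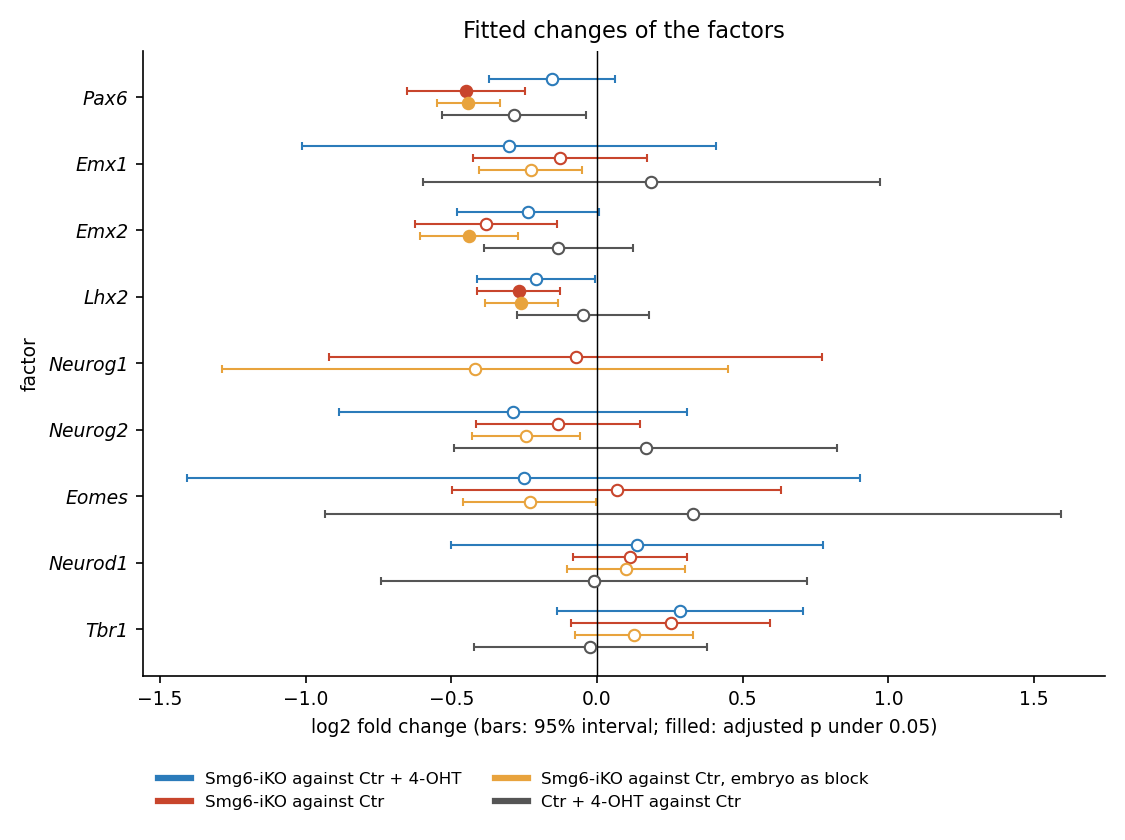
Log2 fold change (x axis) of each factor (y axis) in the 3 comparisons, with *Smg6*-iKO against Ctr also fitted with the embryo as a block. Bars give the 95% interval and filled points have an adjusted p under 0.05: *Pax6* and *Lhx2* in both fits against Ctr, and *Emx2* with the block.

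Counted over the comparisons, 2 of 9 factors were called in *Smg6*-iKO against Ctr, *Pax6* and *Lhx2*, both lower. In this comparison 9.25% of all tested genes were called in either direction, 4.98% lower and 4.27% higher. The median log2 fold change of the 9 factors was -0.13, beside 0.0055 for all genes. Against Ctr + 4-OHT none of the 8 factors tested was called by edgeR, where 1.17% of genes were called, and 6 of the 8 had a negative log2 fold change (median -0.22, beside 0.012 for all genes). DESeq2's test also called none of them. In Ctr + 4-OHT against Ctr none of 8 was called by either tool, where edgeR called 0.221% of genes. There 1 factor, *Pax6*, had an unadjusted p under 0.05, beside 8.28% of all genes. Both comparisons of *Smg6*-iKO used the same 4 *Smg6*-iKO libraries, and both comparisons with Ctr the same 3 Ctr libraries.

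The groups of *Smg6*-iKO and Ctr did not overlap for 4 of 9 factors (*Pax6*, *Emx2* and *Lhx2* lower, *Neurod1* higher), against 23.3% of all tested genes, and for 3 with DESeq2 size factors, where *Neurod1* overlapped. No factor was free of overlap in *Smg6*-iKO against Ctr + 4-OHT, where 11% of genes were, or in Ctr + 4-OHT against Ctr, where 8.71% were.

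Because 3 embryos gave a library to both groups, *Smg6*-iKO and Ctr could be compared within embryos. *Pax6* was lower in the *Smg6*-iKO library of all 3 embryos by nearly the same share, at -26.6% in embryo SMH_128, -25.8% in embryo SMH_132 and -26.7% in embryo SMH_133. *Emx2* was lower in all 3, at -33.0%, -20.0% and -25.3%. *Lhx2* was lower in all 3 as well but unevenly, at -26.8%, -5.73% and -15.5%, and so was *Emx1*, at -24.6%, -5.78% and -12.8%. The 4 patterning factors were thus lower in each embryo, while *Neurod1* was higher in each, by 5.30%, 11.5% and 4.60%. The share of all genes that moved the same way in all 3 embryos was not counted, so this agreement is a description only. *Neurog2* and *Eomes* were lower in embryos SMH_128 and SMH_133 and not in embryo SMH_132, where they were at 1.09% and 7.67% above Ctr. *Tbr1* was at -11.3%, 38.0% and 4.71%.

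With the embryo as a block in the model, 3 of 9 factors were called lower in *Smg6*-iKO than in Ctr, where 21.4% of all tested genes were called, 11.2% lower and 10.3% higher. These were *Pax6* (log2 fold change -0.44, SE 0.051, adjusted p = 1.13e-05), *Emx2* (-0.44, adjusted p = 0.000775) and *Lhx2* (-0.26, SE 0.059, adjusted p = 0.00455). *Neurog2* (-0.24, adjusted p = 0.0578) and *Emx1* (-0.23, adjusted p = 0.0624) were near the threshold. *Eomes* turned from 0.067 to -0.23 (adjusted p = 0.143), and *Tbr1* (0.13, adjusted p = 0.386) and *Neurod1* (0.099, adjusted p = 0.508) kept a positive value. The block raised the number of called genes from 1663 to 3854. Embryo SMH_127 gave a *Smg6*-iKO library only, which its own block takes up, so this fit rests on the 3 pairs of libraries. Its small p-values also draw on a spread estimated over many genes. The turn of *Eomes* is thus largely that seen without *Smg6*-iKO embryo SMH_127 (-0.24), and not a separate result.

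**Figure D3:**
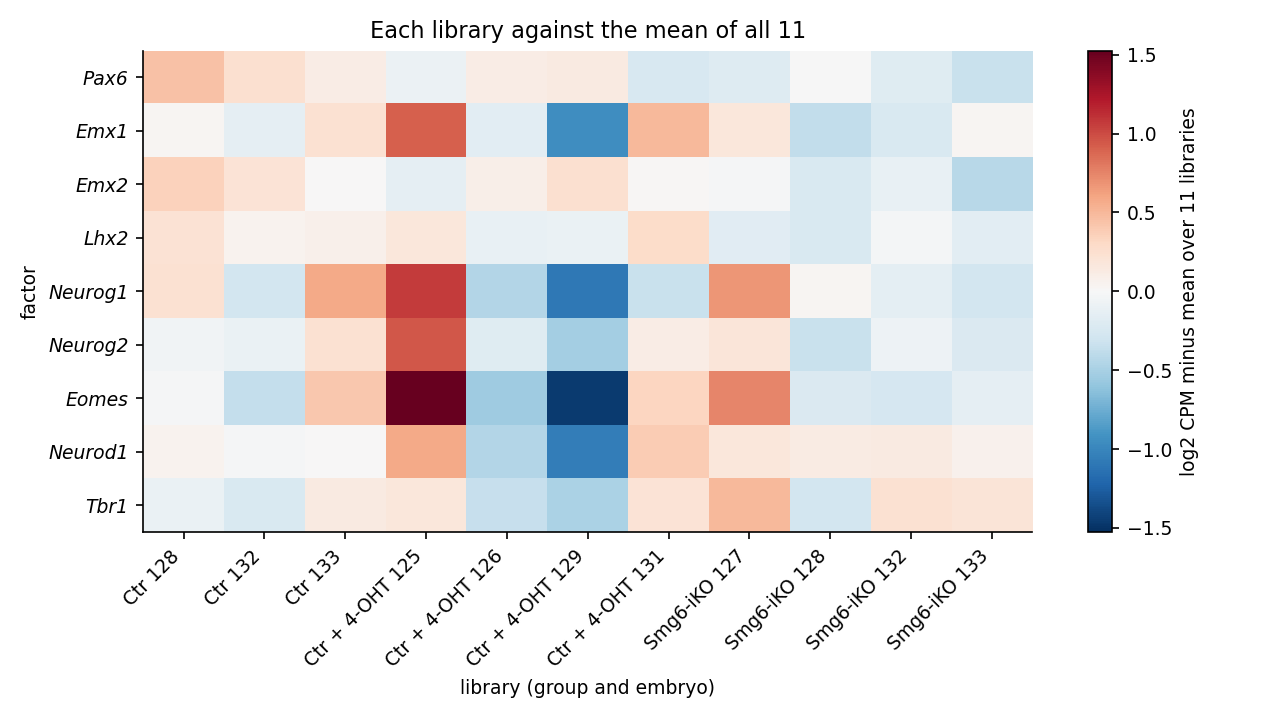
Log2 CPM of each factor (rows) in each library (columns, by group and embryo number) minus its mean over the 11 libraries. Red is above and blue below the mean: 5 factors are highest in embryo SMH_125 and 6 lowest in embryo SMH_129 of Ctr + 4-OHT.

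Embryo SMH_125 of Ctr + 4-OHT had the highest level of all 11 libraries in 5 factors (*Emx1*, *Neurog1*, *Neurog2*, *Eomes* and *Neurod1*), and embryo SMH_129 of the same group had the lowest level in 6, these 5 and *Tbr1*. Within Ctr + 4-OHT the highest library was above the lowest by 3.66-fold for *Emx1*, 2.78-fold for *Neurog2*, 8.05-fold for *Eomes*, 3.13-fold for *Neurod1* and 1.62-fold for *Tbr1*, compared with 1.30-fold for *Pax6*, 1.31-fold for *Emx2* and 1.31-fold for *Lhx2*. Neither embryo was extreme in *Pax6*, *Emx2* or *Lhx2* over the 11 libraries. These 2 embryos were singled out after their values had been seen.

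Over all 3 groups, the SD of log2 CPM between libraries of a group was 0.86 for *Eomes*, which exceeded 99.3% of the 18123 genes kept by the filter. It was 0.65 for *Neurog1* (98.0%), 0.53 for *Emx1* (95.7%), 0.46 for *Neurod1* (93.0%), 0.42 for *Neurog2* (90.3%) and 0.31 for *Tbr1* (78.5%). The values of *Emx2* (0.17), *Pax6* (0.16) and *Lhx2* (0.14) were near the median of all genes, 0.16. By the ratio of the SDs, *Neurod1* was the factor whose spread differed most between groups, with an SD of 0.038 in Ctr, 0.043 in *Smg6*-iKO and 0.76 in Ctr + 4-OHT. With embryos SMH_125 and SMH_129 both left out, which was tried after the data were seen, the SD was 0.48 for *Eomes*, 0.28 for *Emx1*, 0.24 for *Neurod1*, 0.21 for *Neurog2* and 0.39 for *Neurog1*. These are the factors in which the left-out libraries were the highest and the lowest, so a lower SD follows by construction. It was 0.30 for *Tbr1*, 0.17 for *Pax6*, 0.16 for *Emx2* and 0.14 for *Lhx2*. A single library moved some of these by over 1.5 times: without embryo SMH_125 the SD was 0.24 for *Neurog2* and 0.42 for *Neurog1*, and without embryo SMH_129 it was 0.35 for *Emx1* and 0.29 for *Neurod1*.

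**Figure D4:**
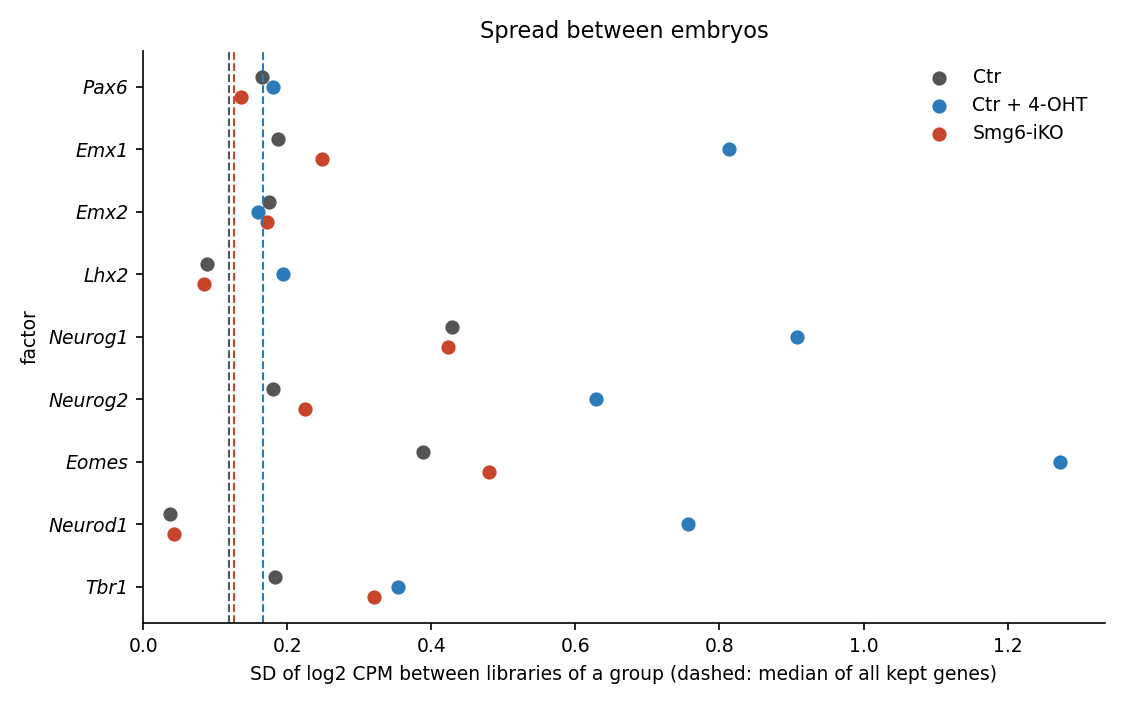
SD of log2 CPM (x axis) of each factor (y axis) between the libraries of one group. Dashed lines give the median over all 18123 kept genes in each group: Ctr + 4-OHT lies far to the right for *Eomes*, *Neurog1*, *Emx1*, *Neurod1* and *Neurog2*, and near the line for *Pax6*, *Emx2* and *Lhx2*.

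Other gene groups were read for the same step between embryos SMH_125 and SMH_129. The step of the 9 factors themselves, with a median of 1.47 in log2 CPM and 7 of 9 higher in embryo SMH_125, was fixed by the choice of these embryos. Genes of intermediate progenitors and proneural targets had a median step of 0.46 (13 of 20 higher in embryo SMH_125) and cortical projection neuron genes 0.40 (23 of 29). Of 28 pallial progenitor and patterning genes 16 were higher, with a median of 0.099. All 12 neural stem cell markers were lower in embryo SMH_125 (median -0.39), glial markers had a median step of -0.39 as well (2 of 10 higher), and the median of all kept genes was -0.012. Ganglionic eminence markers had a median step of 0.12 (12 of 18 higher). Of 6 non-neural markers kept, collagen genes among them, 5 were higher in embryo SMH_125, with a median step of 1.02. Their part in the result was not tested.

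Over the 11 libraries the levels of several factors went together. Pearson's r of log2 CPM was 0.94 between *Emx1* and *Eomes*, 0.93 between *Neurog2* and *Eomes* and 0.86 between *Eomes* and *Neurod1*, whereas it was 0.81 between *Pax6* and *Emx2* and -0.32 between *Pax6* and *Eomes*. With the group means removed, r was 0.96, 0.97 and 0.88 for the first 3 pairs, 0.63 between *Pax6* and *Emx2* and -0.52 between *Pax6* and *Eomes*. Between *Pax6* and *Lhx2* it turned from 0.26 to -0.52. The 11 points come from 8 embryos, 3 of which gave a pair of libraries, and these values are a description only. The genes with the profile most like a factor, by Pearson's r over the same libraries, were *Shisa2*, *Tuba4a* and *Asphd2* for *Eomes* (0.955, 0.953 and 0.953) and *Plcb1*, *Shisa2* and *Rasgef1b* for *Neurog2* (0.934, 0.930 and 0.928). For *Neurog1* they were *Shisa2*, *Rnd2* and *Tfap2c* (0.960, 0.927 and 0.924), for *Emx1* *Mycn*, *Plcb1* and *Sox11* (0.986, 0.985 and 0.973), and for *Neurod1* *Klhl8*, *St8sia4* and *Fkbp1b* (0.968, 0.960 and 0.958). *Shisa2* was thus among the 3 nearest genes of *Eomes*, *Neurog1* and *Neurog2*. *Pax6* was most like *Stom*, *Slc7a2* and *Cdkn1b* (0.983, 0.981 and 0.980), *Emx2* most like *Rc3h1*, *Nipbl* and *Gm43609* (0.929, 0.926 and 0.921), *Lhx2* most like *Ppp1r9b*, *Mprip* and *Tmem250-ps* (0.935, 0.925 and 0.923), and *Tbr1* most like *Dync1h1*, *1700087I21Rik* and *Ern1* (0.962, 0.946 and 0.938).

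Annotated neighbours within 5 kb were examined on both strands, since the reads were counted by strand. *Pax6* overlaps *Pax6os1* on the opposite strand, which had 1 to 6 reads per library, and lies 3663 bases from *Elp4*, a subunit of the Elongator complex. *Elp4* was at 31.2 ± 1.60 CPM in Ctr (SD, n = 3), 31.1 ± 3.66 CPM in Ctr + 4-OHT (SD, n = 4) and 27.4 ± 1.22 CPM in *Smg6*-iKO (SD, n = 4), a log2 fold change of -0.19 against Ctr that missed the threshold (adjusted p = 0.0817) and passed it with embryo blocks (-0.20, adjusted p = 0.0372). *Emx2os*, the antisense transcript of *Emx2*, was at 3.96 ± 0.608 CPM in Ctr, 3.84 ± 0.646 CPM in Ctr + 4-OHT and 4.53 ± 0.876 CPM in *Smg6*-iKO. Its log2 fold changes against Ctr (0.18, adjusted p = 0.541) and Ctr + 4-OHT (0.24, adjusted p = 0.519) did not pass the test and had the sign opposite to those of *Emx2*. The antisense *Gm27197* of *Lhx2* was below 1.34 CPM in every library. *Gm13584* beside *Lhx2*, *Gm33460* beside *Eomes* and *Gm26755* beside *Neurod1* had at most 5 reads in any library. *Cerkl*, which overlaps *Neurod1* on the same strand, had 14 to 28 reads per library, and reads that fell on both genes were not counted for either. *Psmd14*, a proteasome subunit gene 2554 bases from *Tbr1*, was at 122 ± 3.41 CPM in Ctr, 123 ± 5.22 CPM in Ctr + 4-OHT and 112 ± 3.84 CPM in *Smg6*-iKO (adjusted p = 0.154 against Ctr). The small RNA gene *Gm25966*, 4634 bases from *Tbr1*, had at most 10 reads.

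**Figure D5:**
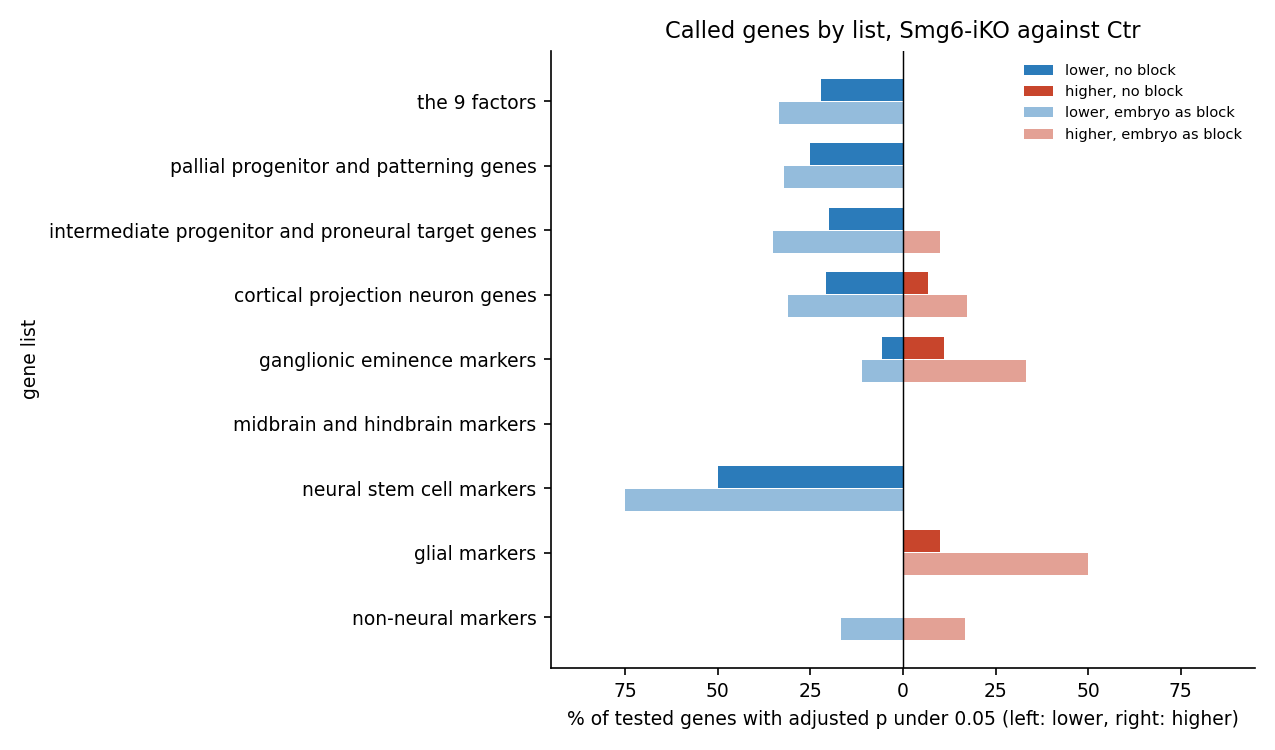
Percentage of the tested genes of each list (y axis) with an adjusted p under 0.05 in *Smg6*-iKO against Ctr, lower to the left and higher to the right. Dark bars are the fit without and pale bars the fit with the embryo as a block; neural stem cell markers reach 6 of 12 and 9 of 12 genes lower.

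The wider gene groups of the same lineage were compared in the same fits. Of all tested genes 4.98% fell and 4.27% rose in *Smg6*-iKO against Ctr, or 11.2% and 10.3% with the embryo as a block, and 16.7% had an unadjusted p under 0.05 against Ctr + 4-OHT. Of 28 tested pallial progenitor and patterning genes, 7 fell in *Smg6*-iKO relative to Ctr and none rose (median log2 fold change -0.053, beside 0.0055 for all genes), and 9 fell with the embryo as a block. They included *Hes5*, the Notch effector of radial glia (77.4 ± 19.4 CPM in Ctr, 51.5 ± 10.9 CPM in Ctr + 4-OHT and 31.8 ± 5.07 CPM in *Smg6*-iKO; SD, n = 3, 4 and 4; log2 fold change -1.28, adjusted p = 0.00186). *Dmrta2*, a DM-domain factor of the dorsal telencephalon, fell by 0.41 (adjusted p = 0.0142), *Sp8*, a patterning factor of the rostral telencephalon, fell by 0.53 (adjusted p = 0.0208), and *Nr2f1* (COUP-TFI), a caudal patterning factor, fell by 0.43 (adjusted p = 0.0241), all on the log2 scale. The secreted Wnt modulator *Sfrp1* fell by 0.43 (adjusted p = 0.0479) on this scale. *Ccnd2*, the most abundant gene of the list per length, was at 0.070 (adjusted p = 0.610). Against Ctr + 4-OHT edgeR called none of 27 tested genes of the list, beside 1.17% of all genes. DESeq2 called 3, beside 880 genes in all, and by edgeR 8 had an unadjusted p under 0.05 (16.7% of all genes). In Ctr + 4-OHT against Ctr neither tool called any of 27, again with 8 at an unadjusted p under 0.05 (median -0.17), as had 8.28% of all genes.

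Among 20 genes of intermediate progenitors and proneural targets, 4 fell relative to Ctr and none rose (median -0.091), and with the embryo as a block 7 fell and 2 rose (11.2% and 10.3% of all genes). Those that fell were *Cdkn1c*, a cell cycle inhibitor (-0.55, adjusted p = 0.00986), the Notch ligand *Dll1* (-0.34, adjusted p = 0.0471), *Mfng*, which modifies Notch (-0.27, adjusted p = 0.0431), and the chromatin remodeller *Chd7* (-0.28, adjusted p = 0.0352). Against Ctr + 4-OHT edgeR called 1 gene of this list of 20, beside 1.17% of all genes. It was *Gadd45g*, a growth arrest gene of cells leaving the cycle, and it rose (29.2 ± 1.77 CPM in *Smg6*-iKO and 21.2 ± 1.95 CPM in Ctr + 4-OHT; SD, n = 4 each; log2 fold change 0.47, adjusted p = 0.0256). Its level in Ctr was 25.8 ± 1.92 CPM (SD, n = 3), and its log2 fold change against Ctr was 0.18 (adjusted p = 0.153). The abundant neuronal factor *Neurod6* was at 0.085 (adjusted p = 0.703), the Notch-related *Hes6* at -0.17 (adjusted p = 0.135, or 0.0308 with the embryo as a block) and the antiproliferative *Btg2* at -0.15 (adjusted p = 0.233) against Ctr.

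Of 29 cortical projection neuron genes, 2 rose and 6 fell relative to Ctr (4.27% and 4.98% of all genes, median 0.0051). Against Ctr + 4-OHT edgeR called none, beside 1.17% of all genes, and DESeq2 called 1, beside 880 genes in all. By edgeR 3 had an unadjusted p under 0.05 there, a smaller share than the 16.7% of all genes. The genes that fell included factors that progenitors also express, *Pou3f3* (-0.35, adjusted p = 0.00588), *Pou3f2* (-0.32, adjusted p = 0.00988), *Cux1* (-0.27, adjusted p = 0.0142) and *Nfib* (-0.28, adjusted p = 0.0391), with the layer IV factor *Rorb* (-0.32, adjusted p = 0.0370). The genes that rose were *Bhlhe22* and the microtubule gene *Mapt* (0.40, adjusted p = 0.0317), while the neuronal tubulin *Tubb3* was at 0.42 (adjusted p = 0.0534, or 0.000222 with the embryo as a block). With the embryo as a block 5 rose and 9 fell, where 21.4% of all genes were called. In Ctr + 4-OHT against Ctr neither tool called any of the 29, and 1 had an unadjusted p under 0.05, beside 8.28% of all genes.

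Markers of neural stem cells, which share *Hes5* with the pallial progenitor genes, and of other cell types were read in the same fits of *Smg6*-iKO against Ctr. Of 12 neural stem cell markers 6 fell and none rose (median -0.29), with *Sox2* at -0.47 (adjusted p = 0.0223), *Prom1* at -0.54 (adjusted p = 0.00806), *Fabp7* at -0.29 (adjusted p = 0.0301) and *Sox1* at -0.31 (adjusted p = 0.0154). Their summed level was 6383 to 7419 TPM in Ctr, 6295 to 7351 TPM in Ctr + 4-OHT and 5649 to 6602 TPM in *Smg6*-iKO. Of 18 ganglionic eminence markers 2 rose, *Dlx1* (0.44, adjusted p = 0.0417) and *Isl1* (0.51, adjusted p = 0.0417), and 1 fell, with a median of 0.30. With the embryo as a block 6 rose and 2 fell, beside 10.3% and 11.2% of all genes. The summed level of these markers was 387 to 439 TPM in Ctr, 419 to 516 TPM in Ctr + 4-OHT and 446 to 478 TPM in *Smg6*-iKO. Of 10 glial markers 1 rose, *Gfap* (1.33, adjusted p = 0.0288), beside 4.27% of all genes, and 5 rose with the embryo as a block (10.3% of all genes). The part of these cells in the lower levels of *Pax6*, *Emx2* and *Lhx2* was not tested. Against Ctr + 4-OHT edgeR called none of these markers. DESeq2 called 1 ganglionic eminence and 1 stem cell marker there, beside 880 genes in all. By edgeR 7 of 18 and 4 of 12 had an unadjusted p under 0.05, beside 16.7% of all genes, with median log2 fold changes of 0.32 and -0.089. In Ctr + 4-OHT against Ctr neither tool called any of them, and 2 of 18 and 2 of 12 had an unadjusted p under 0.05, beside 8.28% of all genes. There 11 of the 12 stem cell markers had a negative log2 fold change (median -0.22), and the median of the ganglionic eminence markers was -0.050. None of 6 tested non-neural markers was called by edgeR without the block or by DESeq2 in *Smg6*-iKO against Ctr, with 1 at an unadjusted p under 0.05 beside 26.9% of all genes. With the embryo as a block, where 21.4% of all genes were called, *Col1a1* rose and *Pdgfrb* fell.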

How the data were processed

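The authors mapped the 50 bp single reads of ribosome-depleted stranded libraries to GRCm38 with STAR 2.5.4b and counted unique reads per Ensembl 92 gene by strand with featureCounts 1.5.0. They deposited raw counts, which were used as they are. Of 53801 identifiers, 53620 were paired with a symbol by GENCODE M21. Library totals were 26418249 to 33756875. No 2 libraries of a group were duplicates (chi-square per gene at least 11.0). For each comparison its 2 groups alone entered the fit, in R 4.3.3 with edgeR 4.0.16: filterByExpr, TMM, the quasi-likelihood test, Benjamini-Hochberg adjustment over all tested genes, and 0.05 as the threshold. The SE is the log2 fold change over the root of F, and intervals are 95%. CPM used TMM over 11 libraries (18123 genes kept), and log2 values used 2 as the prior count. Single levels were compared by two-sided exact permutation tests (scipy 1.17.1). The edgeR and DESeq2 tests without the block were tried on simulated counts with the same dispersion for all genes. The simulation did not cover the embryo block, the permutation tests or genes as variable as *Eomes*. Libraries were paired by the embryo numbers of the labels: deviations from group means correlated between libraries of the same embryo (r 0.34 to 0.44 in 3 pairs) and less between embryos (mean -0.13 over 9 pairs). The value between embryos is not separate evidence, since deviations from a mean cancel within each group. DESeq2 1.42.0, its size factors, no count filter, all libraries in one fit, the embryo block and each library left out were the alternatives, and leaving out embryos SMH_125 and SMH_129 together was added after seeing the data. Named were the 9 factors, *Smg6*, *Esr1*, neighbours within 5 kb, the 3 genes most like each factor, and from each list up to 5 called genes and the 3 highest per length. *Bhlhe22*, *Pdgfrb*, *Hoxa2*, *Ptprc* and *Cldn5* were named after their values had been seen. The factors, lists and tests were chosen with earlier results of these data known. Of the marker lists, 2 genes are not reported here by name and stayed in the fits and counts.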

Additional observations from a re-analysis of the deposited data

Results flagged for a closer look

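*Eomes* in *Smg6*-iKO was marked by a library far from the others. Embryo SMH_127 was at 18.1 CPM, while the other 3 libraries lay between 8.95 and 9.75 CPM, and on the log2 scale its gap to the nearest of them was 0.879 of the range of the group, above Dixon's limit for 4 samples. Chance marks about 1 in 20 groups, and 18 combinations of a factor and a group of 4 libraries were looked at, so about 0.9 would be marked by chance. Embryo SMH_127 was also the highest of the 11 libraries for *Tbr1*, at 24.2 CPM, and the highest of the collagen gene *Col3a1*, at 992 CPM. Whether these go together was not tested.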

How the results depend on the processing

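The counts of called genes depended on the processing. Without the count filter, with all libraries in one fit and with DESeq2's test they were 418, 484 and 880 in *Smg6*-iKO against Ctr + 4-OHT (206 as reported) and 198, 60 and 168 in Ctr + 4-OHT against Ctr (39). In *Smg6*-iKO against Ctr (1663) no filter gave 2714, one fit 796 and the embryo block 3854. Leaving out each single library gave counts of 66 to 174, 570 to 2524 and 5 to 54 in *Smg6*-iKO against Ctr + 4-OHT, *Smg6*-iKO against Ctr and Ctr + 4-OHT against Ctr, and without embryos SMH_125 and SMH_129 they were 29 against Ctr + 4-OHT and 23 in Ctr + 4-OHT against Ctr. The cause of these shifts was not tested.

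Of the 9 factors 2 were called in *Smg6*-iKO against Ctr; with all libraries in one fit 1 was called, *Pax6*, with *Lhx2* at adjusted p = 0.116, and 0 to 2 with a library left out. *Emx2* was called without the filter (adjusted p = 0.00365), with DESeq2 (0.0139), with the embryo block (0.000775) and without Ctr embryo SMH_133 (0.0470). No factor was called in the other 2 comparisons under any alternative. *Pax6*, *Emx2* and *Lhx2* stayed negative in both comparisons of *Smg6*-iKO under every alternative run, *Pax6* between -0.53 and -0.35 against Ctr and between -0.23 and -0.11 against Ctr + 4-OHT.

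Several values that did not pass the test changed sign. In *Smg6*-iKO against Ctr the embryo block gave *Eomes* -0.23, and with a library left out *Eomes* ran from -0.24 to 0.29 and *Neurog1* from -0.33 to 0.17. Against Ctr + 4-OHT the ranges with a library left out were -0.56 to 0.014 for *Emx1*, -0.47 to 0.073 for *Neurog2*, -0.57 to 0.50 for *Eomes* and -0.10 to 0.38 for *Neurod1*, and *Eomes* was 0.15 without embryos SMH_125 and SMH_129. In Ctr + 4-OHT against Ctr they were -0.13 to 0.44 for *Emx1*, -0.12 to 0.0058 for *Lhx2*, -0.20 to 0.35 for *Neurog2*, -0.42 to 0.65 for *Eomes*, -0.26 to 0.23 for *Neurod1* and -0.13 to 0.091 for *Tbr1*, and without embryos SMH_125 and SMH_129 *Neurog2* was -0.057, *Eomes* -0.083, *Neurod1* 0.019 and *Tbr1* 0.018. The embryo block changed no other call of a factor than that of *Emx2*. *Neurog1* rests on 3 to 18 reads per library, and the part of depth in its wide interval was not tested.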

Other observations

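Levels of *Gfap*, the intermediate filament of astrocytes, lay between 5.14 and 78.2 CPM in Ctr + 4-OHT, a range of 15.2-fold, and between 25.7 and 63.6 CPM in *Smg6*-iKO. Other glial markers ranged less within Ctr + 4-OHT, over 1.32-fold for *Olig1*, 1.39-fold for *Aldh1l1* and 2.01-fold for *Sox10*. *Col3a1*, *Col1a2* and *Col1a1*, collagen genes of mesenchymal cells, ranged over 5.17-fold, 6.06-fold and 7.11-fold within *Smg6*-iKO and over 1.47-fold, 1.47-fold and 1.35-fold within Ctr. *Ptprc* of leukocytes had at most 10 reads and *Cldn5* of endothelium at most 7 reads in any library.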
